A study of Arabidopsis thaliana with 12 samples.

Results

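The genes described here are the plant defensin genes PDF1.2 (AT5G44420, probe set 249052_at) and PDF1.2b (AT2G26020, probe set 257365_x_at) and the thionin gene THI2.1 (AT1G72260, probe set 259802_at). They were taken by name as genes of the jasmonate and ethylene side of defence, and their 3 probe sets stand among 22746 tested. The platform table assigns each of these probe sets to 1 gene, and none of the 3 genes has another named probe set.

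Jasmonate is a lipid-derived hormone made after wounding, insect feeding and attack by necrotrophic fungi. Together with the gas ethylene it switches on PDF1.2 through transcription factors of the ERF family, while jasmonate alone favours another set of genes through MYC2 and its relatives. PDF1.2 and PDF1.2b encode small secreted antifungal peptides rich in cysteine, and THI2.1 encodes a small basic peptide that is toxic to microbes and is induced by jasmonate. Salicylic acid, the hormone of defence against biotrophic pathogens, commonly dampens jasmonate-induced expression of PDF1.2.

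Transcript levels were measured with 1 Affymetrix array per sample in the entire aerial part of Arabidopsis thaliana of accession Col-0. The 12 arrays form 4 groups of 3 biological replicates. These are sid2-1 after 3 weeks at 4 °C, wild type (WT) after 3 weeks at 4 °C, sid2-1 at 22 °C and WT at 22 °C. The mutant sid2-1 lacks a working isochorismate synthase, ICS1, and makes little pathogen-induced salicylic acid. All plants had grown in soil at 22 °C with a 12 h photoperiod for approximately 23 days, so plants from the cold were also 3 weeks older, and cold and age cannot be told apart. ICS1 is without a named probe set here, so the genotype labels were not checked against the mutated gene.

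Array medians lay between 4.39 and 4.47 on the log2 scale, and replicates correlated across probe sets at 0.978 to 0.990. The leaf genes LHCB4.2 and RCA were high on all 12 arrays, at 12.02 to 13.49 for LHCB4.2, which encodes an antenna protein, and at 13.16 to 14.01 for RCA, which encodes the activator of Rubisco. Of the root markers, EXPA7 stood at 2.2 on all arrays and AT1G62500 at no more than 3.38. None of the 12 flower marker genes chosen has a named probe set. In such whole-shoot samples, fewer cells of a type and less RNA per cell cannot be told apart.

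PDF1.2 was high in the cold in WT and scattered widely in sid2-1 at either temperature. Its log2 signals were 8.34, 4.78 and 6.76 in sid2-1 at 4 °C, 8.01, 8.47 and 6.4 in WT at 4 °C, 9.05, 4.82 and 4.69 in sid2-1 at 22 °C, and 4.05, 4.03 and 4.03 in WT at 22 °C. The highest value of all 12 came from a mutant plant sample kept warm, replicate 1 of sid2-1 at 22 °C. The other mutant samples at 22 °C were low, but each of the 3 lay above each WT sample at 22 °C. The WT signals at 22 °C agreed to within 0.02, and 4.03 recurred on 2 arrays. They are treated here as a low plateau that carries no order. That level lies above the lowest value of any probe set, and whether it is a limit of detection was not tested.

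PDF1.2b followed the same order of samples closely. Its log2 signals were 8.39, 5.84 and 8.48 in sid2-1 at 4 °C, 9.3, 9.21 and 7.75 in WT at 4 °C, 9.43, 6.73 and 5.77 in sid2-1 at 22 °C, and 4.8, 5.87 and 4.5 in WT at 22 °C. Again replicate 1 of sid2-1 at 22 °C was the highest of all 12 samples, and replicate 2 was the lowest of the mutant samples at 4 °C. Among group means the order was the same for both defensins, with WT at 4 °C first (7.63 ± 1.09 for PDF1.2 and 8.75 ± 0.87 for PDF1.2b, SD, n = 3). Then came sid2-1 at 4 °C (6.63 ± 1.78 and 7.57 ± 1.50), sid2-1 at 22 °C (6.19 ± 2.48 and 7.31 ± 1.90) and WT at 22 °C (4.04 ± 0.01 and 5.06 ± 0.72). No neighbours in that order were told apart by the fit described next, and the values of both mutant groups overlapped broadly.

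**Figure D1:**
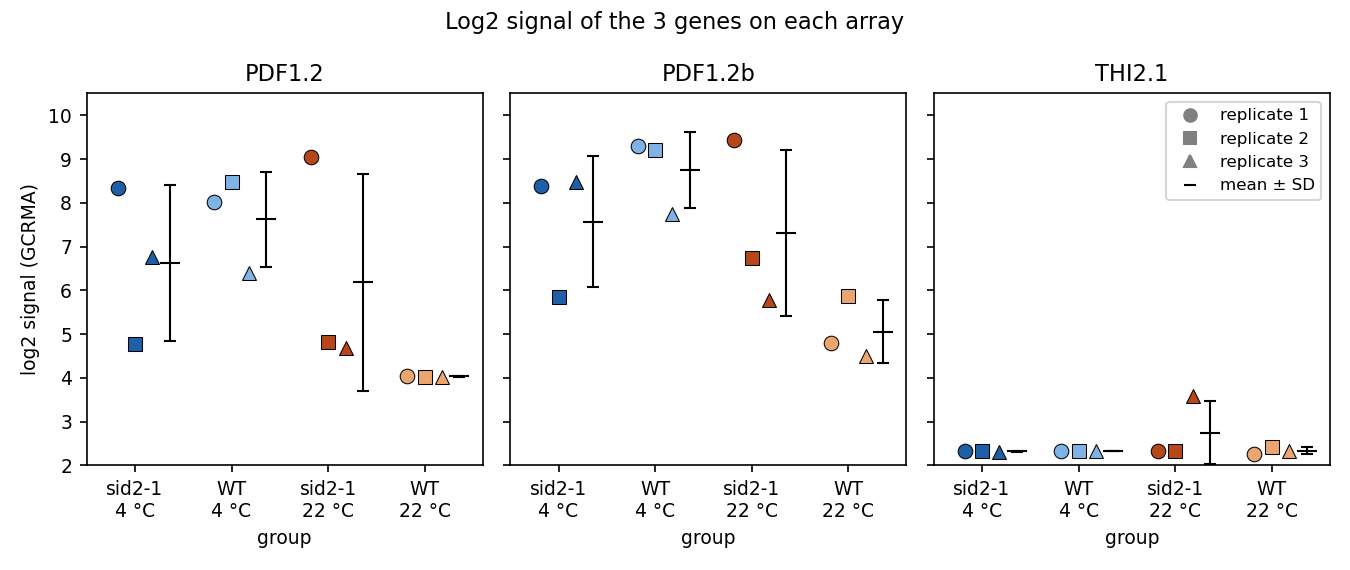
Log2 signal (vertical axis) of PDF1.2, PDF1.2b and THI2.1 on each of the 12 arrays, by group (horizontal axis); points are arrays, shaped by replicate number, and bars are the mean ± SD of 3. Both defensins are highest on replicate 1 of sid2-1 at 22 °C, at 9.05 and 9.43. Both lie at 6.4 or above on every WT array at 4 °C. So they do on replicates 1 and 3 of sid2-1 at 4 °C (8.34 and 6.76 for PDF1.2, 8.39 and 8.48 for PDF1.2b). PDF1.2b also does on replicate 2 of sid2-1 at 22 °C (6.73). THI2.1 stays near 2.33 on all arrays but 1.

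THI2.1 was near the lowest value of the table in every group. It stood at 2.33, 2.33 and 2.3 in sid2-1 at 4 °C, at 2.33 on all arrays of WT at 4 °C, at 2.33, 2.33 and 3.59 in sid2-1 at 22 °C, and at 2.26, 2.41 and 2.33 in WT at 22 °C. The value of 2.33 recurred on 8 of the 12 arrays, against 2.2 as the lowest value of any probe set. At a value that recurs exactly, weak expression and none cannot be told apart. The single higher signal, 3.59, came from replicate 3 of sid2-1 at 22 °C, which had the lower PDF1.2 and PDF1.2b values of its group.

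Over the 12 arrays PDF1.2 and PDF1.2b correlated at a Pearson r of 0.952 and a Spearman rho of 0.911. Within groups, as deviations from the group means, r was 0.907, and the deviations had the same sign on 10 of 12 arrays. Both genes belong to one family of near-identical copies, and the suffix of the PDF1.2b probe set marks probes that can also bind other transcripts, so the pair is not a set of independent measurements. PDF1.2c (AT5G44430), next to PDF1.2 on the chromosome, and PDF1.3 (AT2G26010), next to PDF1.2b, are further relatives without a named probe set here, and their share in either signal was not tested. THI2.1 correlated at -0.235 with PDF1.2 and at -0.241 with PDF1.2b over the 12 arrays, with THI2.1 well above its other values on 1 array only.

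**Figure D2:**
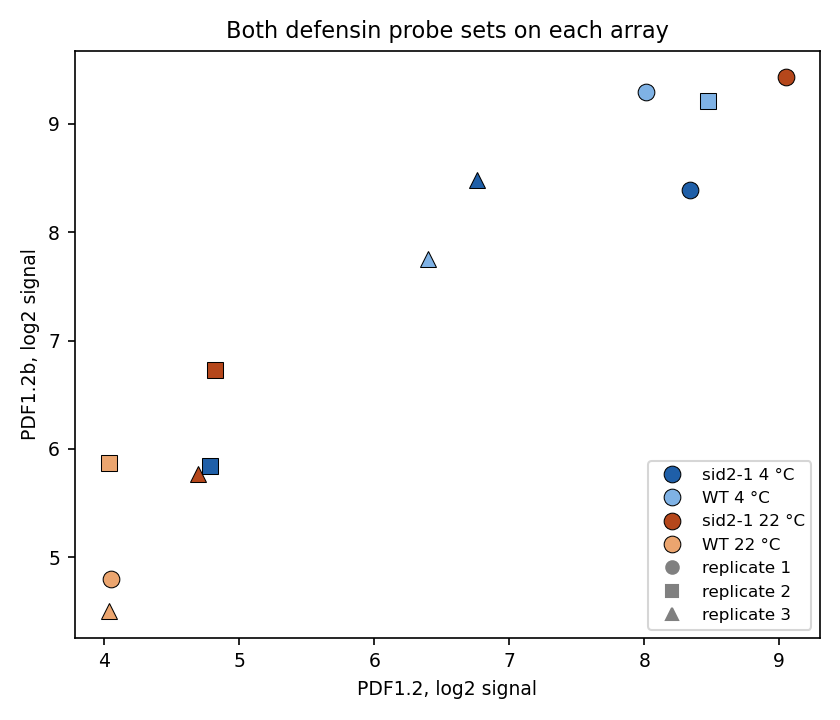
Log2 signal of PDF1.2b (vertical axis) against that of PDF1.2 (horizontal axis) on the 12 arrays, coloured by group and shaped by replicate number. The arrays run along a rising line (Pearson r 0.952), with sid2-1 at 22 °C replicate 1 at its upper end beside WT at 4 °C.

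Pooled over the 4 groups, both defensins varied within groups far more than most transcripts. The pooled SD within groups was 1.62 for PDF1.2 and 1.33 for PDF1.2b on the log2 scale, and the median for the 12422 probe sets averaging above 4 was 0.301. Only 13 of those probe sets had a larger SD than PDF1.2, and 35 had a larger one than PDF1.2b. Within sid2-1 at 22 °C, the highest sample exceeded the lowest 20.5-fold for PDF1.2 and 12.6-fold for PDF1.2b. In sid2-1 at 4 °C the same ratio was 11.8-fold for PDF1.2 and 6.23-fold for PDF1.2b. In WT at 4 °C it was 4.2-fold for PDF1.2 and 2.93-fold for PDF1.2b. In WT at 22 °C it was 2.6-fold for PDF1.2b, while the PDF1.2 values there agreed to within 0.02.

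The array of sid2-1 at 22 °C replicate 1 did not stand apart as a whole, since it correlated with its replicates at 0.989 and 0.986. On it, 7 probe sets exceeded both other replicates by at least 2 on the log2 scale. Across the other 11 arrays that number ran from 1 to 91. PDF1.2 had the largest such gap of the 7, at 4.23, and PDF1.2b the fourth, at 2.7.

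The first comparison asked how the genes differed between sid2-1 after cold and sid2-1 at 22 °C. PDF1.2 differed by 0.44 ± 1.28 on the log2 scale between 4 °C and 22 °C (SE, n = 3 against 3, 95% interval -2.47 to 3.35, adjusted p = 0.997 by limma). The difference of PDF1.2b was 0.26 ± 1.05 (95% interval -2.13 to 2.65, adjusted p = 1.0), and that of THI2.1 was -0.43 ± 0.29 (95% interval -1.09 to 0.23, adjusted p = 0.488). None of the 3 was called, where 6.28% of all probe sets were. These intervals are wide, and they overlap those of WT given next. The sign itself rested on single arrays. Without sid2-1 at 22 °C replicate 1 the differences were 1.87 for PDF1.2 and 1.32 for PDF1.2b. They were -0.24 and -0.03 without replicate 2 of that group, -0.31 and -0.51 without its replicate 3, and -0.42 and -0.15 without sid2-1 at 4 °C replicate 1. Without sid2-1 at 4 °C replicate 3 the difference of PDF1.2b was -0.20.

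In WT the question was the same. PDF1.2 was higher at 4 °C by a log2 difference of 3.59 ± 1.28 on the deposited scale (SE, n = 3 against 3, 95% interval 0.68 to 6.50). The WT values at 22 °C are treated as a low plateau, so no fold is given for this gene. For PDF1.2b the difference was 13.0-fold, or 3.70 ± 1.05 (95% interval 1.30 to 6.09). In both genes every cold sample lay above every warm one, by at least 2.35 for PDF1.2 and 1.88 for PDF1.2b. Of all probe sets, 14.3% were without overlap in this direction, with a gap of any size. Larger differences in either direction were seen in 113 probe sets for PDF1.2 and in 99 for PDF1.2b.

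Neither difference passed limma's test over 22746 probe sets, with adjusted p = 0.110 for PDF1.2 (unadjusted p = 0.0212) and 0.0524 for PDF1.2b (unadjusted p = 0.00699), in a comparison where 13.0% were called. These calls turned on settings that touch the spread and the number of tests. With probe sets of a mean up to 4 left out, the adjusted p was 0.0294 for PDF1.2 and 0.0105 for PDF1.2b, and without sid2-1 at 22 °C replicate 1, which enters only the shared spread, it was 0.0396 and 0.0278. THI2.1 differed by -0.0033 ± 0.29 (95% interval -0.66 to 0.65, adjusted p = 1.0).

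At 22 °C, the comparison of sid2-1 with WT asked whether the mutant differed before any cold. On the deposited scale PDF1.2b had the largest difference of all 22746 probe sets and PDF1.2 the second largest. Neither passed the test, and PDF1.2 was set against the presumed WT plateau. PDF1.2b was 4.77-fold higher in sid2-1 (log2 difference 2.25 ± 1.05, SE, n = 3 against 3, 95% interval -0.14 to 4.65, adjusted p = 1.0). For PDF1.2 the log2 difference was 2.15 ± 1.28 (95% interval -0.76 to 5.06, adjusted p = 1.0). THI2.1 differed by 0.42 ± 0.29 (95% interval -0.24 to 1.07, adjusted p = 1.0), through its 1 signal of 3.59. Of all probe sets, 0.0044% were called in this comparison.

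The size of these differences depended on 1 array. Without sid2-1 at 22 °C replicate 1 the difference was 0.72 for PDF1.2 and 1.19 for PDF1.2b, and without replicate 3 of that group the difference of THI2.1 was -0.0033. The 3 mutant samples of PDF1.2 nevertheless lay above all 3 WT samples, the closest by 0.64, a separation that 2.53% of probe sets showed in this direction. The values of PDF1.2b overlapped by 0.1 between the genotypes. Between arrays of the same replicate number, sid2-1 minus WT was 4.63, 0.86 and 1.27 for PDF1.2b and 5.0, 0.79 and 0.66 for PDF1.2. For PDF1.2 the sign of all 3 pairs already follows from the separation of the groups. The share of all probe sets that were higher in sid2-1 in all 3 pairs was not computed. This comparison shares the WT samples at 22 °C with the WT cold response, so the low defensin signals of that group enter both. The titles of that group alone carry an unexplained bracketed number, and if it marks a batch, batch and group cannot be told apart in either comparison.

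At 4 °C, both defensins had lower means in sid2-1 than in WT, by less than their spread. The difference was -1.0 ± 1.28 for PDF1.2 (SE, n = 3 against 3, 95% interval -3.91 to 1.91, adjusted p = 0.921 by limma) and -1.18 ± 1.05 for PDF1.2b (95% interval -3.58 to 1.21, adjusted p = 0.790). Without replicate 2 of sid2-1 at 4 °C, the low mutant sample, the differences were -0.08 and -0.32. Between arrays of the same replicate number, sid2-1 minus WT was 0.33, -3.69 and 0.36 for PDF1.2 and -0.91, -3.37 and 0.73 for PDF1.2b. THI2.1 differed by -0.01 ± 0.29 (95% interval -0.67 to 0.65, adjusted p = 1.0). None was called, where 0.615% of probe sets were.

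**Figure D3:**
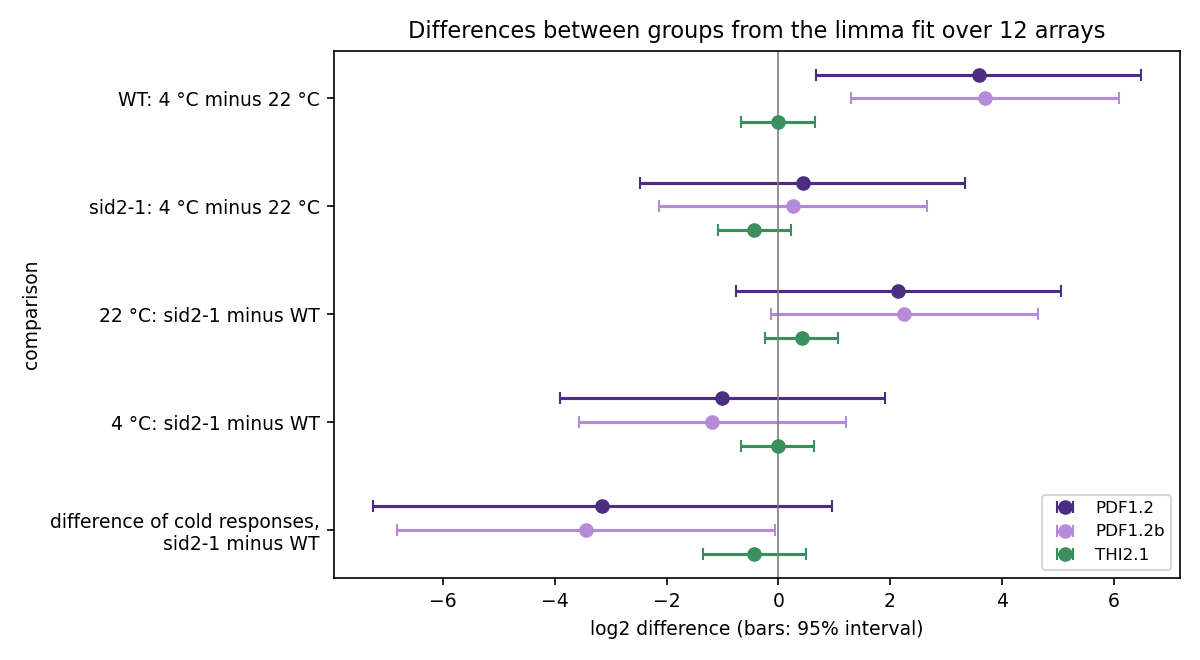
Log2 differences (horizontal axis) of PDF1.2, PDF1.2b and THI2.1 in 5 comparisons (vertical axis), as points with 95% intervals from the limma fit over 12 arrays. The intervals of both defensins lie above 0 in the WT cold response and span 0 in the sid2-1 cold response and both genotype comparisons, while that of PDF1.2b in the difference of cold responses ends at -0.05.

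Whether the cold response differed between genotypes was tested as an interaction. The response of PDF1.2 in sid2-1 minus that in WT was -3.15 ± 1.80 (SE, 95% interval -7.26 to 0.96, adjusted p = 0.936 by limma). For PDF1.2b it was -3.44 ± 1.49 (95% interval -6.82 to -0.05, adjusted p = 0.936), and for THI2.1 -0.43 ± 0.41 (95% interval -1.35 to 0.50, adjusted p = 0.936). Of all probe sets 0.0615% were called, none of the 3 among them. Without sid2-1 at 22 °C replicate 1 the interaction was -1.72 for PDF1.2 and -2.38 for PDF1.2b. The unadjusted p of PDF1.2b was 0.0472. With a replicate block within each temperature, added after the data were seen, its SE was 1.57 and its unadjusted p by limma was 0.0845. A difference between the genotypes in the cold response was thus not shown for these genes. Averaged over both genotypes, a comparison added after the values were seen, PDF1.2 was higher in the cold by 2.02 ± 0.90 (adjusted p = 0.170) and PDF1.2b by 1.98 ± 0.74 (adjusted p = 0.103), where 20.5% of probe sets were called. Both passed without sid2-1 at 22 °C replicate 1, at 2.73 (adjusted p = 0.0282) and 2.51 (adjusted p = 0.0290). That warm array has the highest value of both genes, so leaving it out raises the cold difference in any case. Of 16 alternatives, PDF1.2 passed in 1 and PDF1.2b in 2. The difference ran from 1.59 to 2.73 for PDF1.2 (adjusted p 0.0282 to 0.305). For PDF1.2b it ran from 1.59 to 2.51 (adjusted p 0.0283 to 0.195).

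Among all PDF defensin genes, those called in the cold were LCR69 and LCR68. Of the 13 PDF genes chosen, 10 have a named probe set. In sid2-1 2 of the 10 rose, which were LCR69 (also PDF2.2, log2 difference 6.13 ± 0.36, SE, adjusted p = 2.07e-04 by limma) and LCR68 (also PDF2.3, 0.86 ± 0.21, adjusted p = 0.0457), where 3.2% of all probe sets rose. In WT LCR69 rose by 6.19 ± 0.36 (adjusted p = 1.12e-04) and LCR68 by 0.83 ± 0.21 (adjusted p = 0.0325), where 6.81% of all probe sets rose. LCR69 stood at 12.32, 12.92 and 12.45 in sid2-1 at 4 °C, 12.2, 11.56 and 12.3 in WT at 4 °C, 5.93, 7.27 and 6.11 in sid2-1 at 22 °C, and 6.11, 5.78 and 5.6 in WT at 22 °C. Another 5 members, LCR67, PDF1.4, LCR66, PDF2.5 and LCR72, had no signal above 4 on any array. The list median was 0.23 in sid2-1 and 0.07 in WT, against 0.0 over all probe sets in both. No PDF gene was called in the genotype comparisons (list medians 0.04 at 22 °C and 0.0 at 4 °C) or in the interaction (-0.02). Of all probe sets 0.0044%, 0.615% and 0.0615% were called there, so this count does not set the list apart.

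All 4 thionin genes of the list have a named probe set. None was called in the 5 comparisons, where 13.0% of all probe sets or fewer were, so the count does not set the list apart. AT2G15010 stood between 2.2 and 2.3 on all arrays, and the other two varied more. AT1G66100 stood at 9.91, 10.68 and 10.48 in sid2-1 at 4 °C, 9.91, 8.37 and 10.28 in WT at 4 °C, 11.85, 12.13 and 11.02 in sid2-1 at 22 °C, and 11.05, 11.09 and 10.21 in WT at 22 °C. The cold difference of this gene was -1.31 ± 0.52 in sid2-1 (adjusted p = 0.196) and -1.26 ± 0.52 in WT (adjusted p = 0.166). THI2.2, the closest in name to THI2.1, differed by -0.46 ± 0.76 in sid2-1 (adjusted p = 0.870) and by -1.70 ± 0.76 in WT (adjusted p = 0.204). Between genotypes, THI2.2 differed by 2.07 ± 0.76 at 4 °C (adjusted p = 0.415) and AT1G66100 by 0.88 ± 0.52 at 22 °C (adjusted p = 1.0). The list median was -0.44 in sid2-1 and -0.65 in WT.

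**Figure D4:**
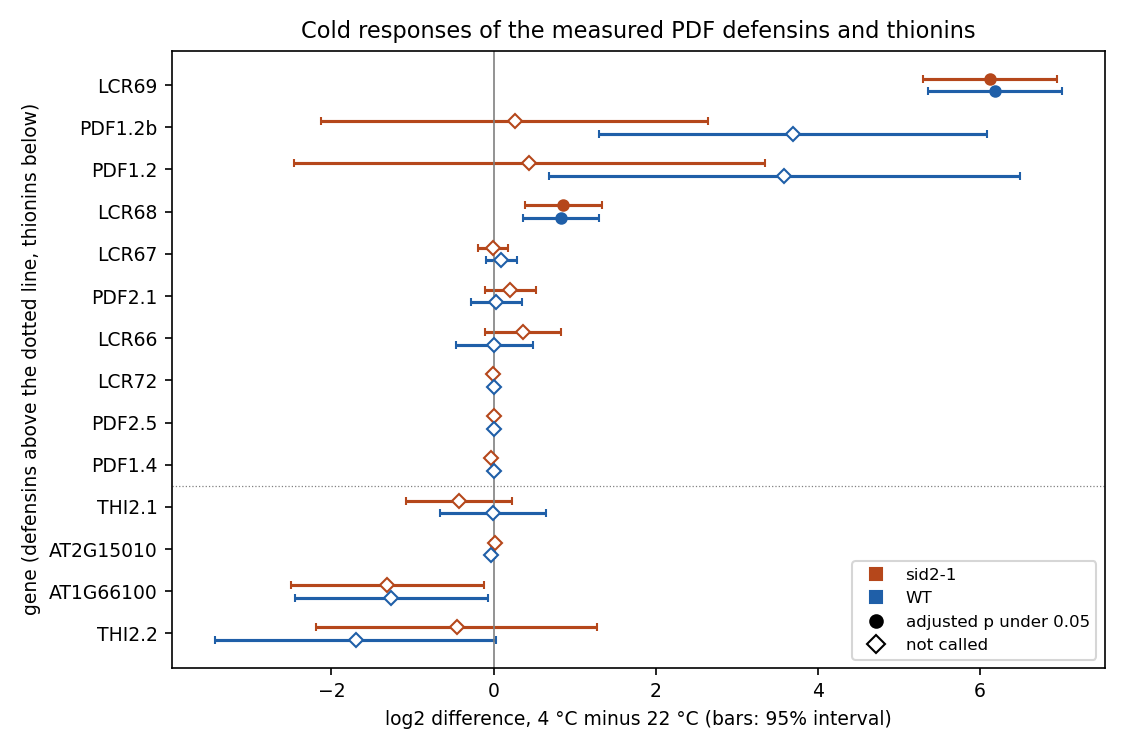
Log2 difference of 4 °C minus 22 °C (horizontal axis) in sid2-1 and WT for the 10 measured PDF defensins and the 4 thionins (vertical axis), with 95% intervals; filled circles passed the adjusted threshold of 0.05. LCR69 and LCR68 rose in both genotypes, while the intervals of PDF1.2 and PDF1.2b are among the widest shown.

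Hormone synthesis genes were next. Of the 24 jasmonate synthesis genes 4 have a named probe set. In sid2-1 none of the 4 was called, where 6.28% of all probe sets were. JMT, which makes the methyl ester of jasmonate, differed there by -1.56 ± 0.47 (SE, adjusted p = 0.0961 by limma). OPCL1, a CoA ligase of the pathway, differed by -1.15 ± 0.35 (adjusted p = 0.0976). In WT 1 of the 4 fell in the cold, which was JMT (-2.0 ± 0.47, adjusted p = 0.0264), where 6.19% of all probe sets fell. The list median was -0.72 in sid2-1 and -0.47 in WT. The 1 measured gene of 13 in ethylene synthesis, AT1G12010, an oxidase of the last step, was not called in sid2-1 (-0.52 ± 0.39) or in WT (-0.67 ± 0.39). Of all probe sets, 6.28% were called in sid2-1 and 13.0% in WT.

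Of the 10 jasmonate turnover genes 4 are measured, and none was called in the cold, where 6.28% of all probe sets were in sid2-1 and 13.0% in WT. They include JRG21 and AT2G38240, enzymes that oxidise and so inactivate jasmonate. JRG21 stood at 2.25, 3.31 and 3.32 in sid2-1 at 4 °C and at 2.72, 5.07 and 2.24 in WT at 4 °C, and at no more than 2.3 on the arrays at 22 °C. Its cold difference was 0.70 ± 0.64 in sid2-1 and 1.10 ± 0.64 in WT, and that of AT2G38240 was 0.16 ± 0.51 in sid2-1 and 1.15 ± 0.51 in WT. On the array of sid2-1 at 22 °C replicate 1, JRG21 stood at 2.25 and AT2G38240 at 2.32. AT2G38240 stood at 2.32 on every array at 22 °C, so these values do not set that array apart. The list median was 0.08 in sid2-1 and 0.55 in WT.

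Among receptors and transcription factors, 2 of 22 jasmonate signalling genes, 3 of 16 ethylene signalling genes and 1 of 14 ERF regulators are measured. None was called in the 5 comparisons, where 13.0% of all probe sets or fewer were, a count that does not set these genes apart. MYC4, a relative of MYC2, differed by -0.72 ± 0.26 in sid2-1 and -0.66 ± 0.26 in WT between 4 °C and 22 °C. MYC3 differed by 0.43 ± 0.21 in sid2-1 and -0.09 ± 0.21 in WT. EIN3, the transcription factor at the end of the ethylene pathway, differed by -0.22 ± 0.18 in sid2-1 and -0.16 ± 0.18 in WT, and RTE1, which acts on an ethylene receptor, by -0.15 ± 0.26 in sid2-1 and -0.53 ± 0.26 in WT. The ERF gene AT5G43410 differed by 0.29 ± 0.18 in sid2-1 and 0.12 ± 0.18 in WT. The MYC-branch outputs (0 of 10 with a named probe set) and the other ERF-branch outputs (0 of 5) are not analysed here.

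On the salicylic acid side, 2 of 22 regulators known to act on jasmonate outputs are measured. WRKY53, a defence transcription factor, differed by -0.21 ± 0.65 in the cold in sid2-1 (SE, adjusted p = 1.0 by limma). In WT it rose by 3.51 ± 0.65 (adjusted p = 0.0104), where 6.81% of all probe sets rose. The difference between these responses was -3.72 ± 0.93 (adjusted p = 0.548). Its values were 2.89, 4.91 and 3.47 in sid2-1 at 4 °C and 6.89, 8.56 and 6.78 in WT at 4 °C, without overlap, a separation that 6.09% of probe sets showed in this direction. PDF1.2 in those samples overlapped broadly between the genotypes. At 4 °C the genotypes differed by -3.65 ± 0.65 for WRKY53 (adjusted p = 0.0583) and by -0.76 ± 0.20 for GRX480 (adjusted p = 0.220), a glutaredoxin that represses PDF1.2 when overexpressed. On sid2-1 at 22 °C replicate 1, the array with the highest PDF1.2, WRKY53 stood at 3.8, between its replicates at 4.51 and 3.6. GRX480 stood at 3.37 there, against 3.26 and 3.33.

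Leaving out PDF1.2, PDF1.2b and THI2.1 themselves, and by Pearson correlation over the 12 arrays among 6667 named probe sets with a mean above 4, the pattern most like PDF1.2 was that of AT1G69020 (r = 0.829, and 0.816 within groups). AT5G41180 (0.808, and 0.612 within groups) and AT1G15140 (0.802, and 0.665 within groups) followed. With the same genes left out, those most like PDF1.2b were AT5G04170 (0.850), AT1G18700 (0.820) and AT5G41180 (0.820). Within groups these were lower, at 0.742, 0.687 and 0.59. None of them moved as far as the defensins, since AT1G69020 ranged from 3.96 to 4.72 and AT5G04170 from 6.79 to 8.44. For THI2.1 the closest was AT3G25950 (0.996), whose signal ranged only from 5.39 to 5.4, then AT5G48640 (0.960) and AT4G39190 (0.906). These likenesses of THI2.1 rest on 1 array.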

How the data were processed

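The authors deposited log2 values, 1 per probe set and array. GCRMA, which corrects background, normalizes between arrays and summarises probes, and limma are named per the submitters' processing notes, and their versions are not given in the sources used here. Which arrays were normalized together is not stated. The titles of the WT arrays at 22 °C carry a bracketed number that the labels do not explain, and whether it marks a batch was not tested. Signals hold no counts, so the 3 arrays a group limit precision.

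The 64 control probe sets of 22810 were left out. Genes were named through the platform table and a RefSeq gene table of assembly TAIR10.1 (13436 probe sets of 1 gene); 8730 probe sets are unlisted there. All 12 arrays entered 1 model of 4 group means in limma 3.58.1 under R 4.3.3 (8 residual and 0.609 prior degrees of freedom). P values are two-sided, Benjamini-Hochberg adjusted over 22746 probe sets of a comparison, and called under 0.05; the fit was tested on simulated data. Tables and plots used Python 3.11.15, pandas 2.3.3 and matplotlib 3.10.9.

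Of 186 genes in 14 lists (11 pathway lists and 3 of tissue markers), 35 are measured. From each list the text takes up to 4 called genes by size, or up to 2 as values where none was called, and the 3 genes most like each member. The members and lists were chosen with earlier results of these data known.

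The labels number replicates 1 to 3 in each group. Deviations from group means of same-numbered arrays correlated at 0.284 to 0.467 between the genotypes at 22 °C and at 0.211 to 0.252 at 4 °C, all 3 pairs above 0.1 in both, but at 0.0308 to 0.179 between the temperatures in sid2-1 and at 0.000126 to 0.244 in WT. Between sid2-1 at 4 °C and WT at 22 °C they correlated at 0.0444 to 0.371, with 2 pairs above 0.1. Between WT at 4 °C and sid2-1 at 22 °C the range was -0.0476 to 0.0342. Arrays of different numbers reached 0.212, with 6 of 36 pairs above 0.1. Only between the genotypes within a temperature did all 3 pairs exceed 0.1. A pairing there is thus read from the data and not from the labels, and the separation from other pairs is not clean. Alternatives were a replicate block, a dim filter, fits of 2 groups, median centring, a mean-dependent prior and leaving out each array.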

Additional observations from a re-analysis of the deposited data

How the results depend on the processing

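The PDF1.2 and PDF1.2b differences in the WT cold response kept their direction under every alternative run and crossed the threshold under some. Leaving out probe sets with a mean up to 4 called both (3.59, adjusted p = 0.0294, and 3.70, adjusted p = 0.0105), as did a fit of the 2 WT groups alone (3.59, adjusted p = 0.0451, and 3.70, adjusted p = 0.0457). PDF1.2b was also called with median centring (3.72, adjusted p = 0.0391) and a mean-dependent prior (3.70, adjusted p = 0.0457). Over all alternatives the adjusted p ran from 0.0294 to 0.280 for PDF1.2 and from 0.0105 to 0.150 for PDF1.2b. With single arrays left out, the difference ran from 3.17 to 4.20 for PDF1.2 and from 3.42 to 4.20 for PDF1.2b; PDF1.2b was also called without sid2-1 at 22 °C replicate 3 and without sid2-1 at 4 °C replicate 2.

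In the sid2-1 cold response, leaving out single arrays gave -0.42 to 1.87 for PDF1.2 and -0.51 to 1.32 for PDF1.2b, across 0. THI2.1 changed sign in the WT cold response with median centring (0.023) and over single arrays left out (-0.04 to 0.035), and at 22 °C between genotypes (-0.0033 to 0.63). In the genotype comparisons and the interaction no member was called under any alternative run. In the mean cold response PDF1.2b was called with the dim filter (1.98, adjusted p = 0.0283), and both defensins without sid2-1 at 22 °C replicate 1.

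With a replicate block no call of a member changed: in WT the cold difference was 3.59 ± 1.09 for PDF1.2 (adjusted p = 0.0783) and 3.70 ± 1.01 for PDF1.2b (adjusted p = 0.0574). The block took the count of all called probe sets to 0 between genotypes at 22 °C (894 at an unadjusted p under 0.05; 1 call without the block, with 689) and to 3 in the interaction (14). A block within each temperature, added after the data were seen, gave 0 at 22 °C (1054 unadjusted), 27 at 4 °C (140) and 0 in the interaction (1401 unadjusted).

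Counts of called probe sets moved elsewhere too. The dim filter gave 2243 in the sid2-1 cold response (1428), 0 between genotypes at 22 °C (342 unadjusted), 213 at 4 °C and 30 in the interaction. The 2-group fits gave 376 in sid2-1, 1407 in WT (2956), 2 at 22 °C and 0 at 4 °C (1504 unadjusted). Median centring gave 0 at 22 °C (662 unadjusted). Single arrays left out gave 788 to 1457 in sid2-1, 1865 to 2859 in WT, 0 to 20 at 22 °C, 84 to 281 at 4 °C and 0 to 70 in the interaction. The dim filter tests fewer probe sets and 2-group fits use fewer samples; otherwise the cause was not tested. The fit of 2 groups could not be made for the interaction, and the dim filter leaves out THI2.1.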

Other observations

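Beside both defensins, 5 probe sets stood at least 2 above both replicates on the array of sid2-1 at 22 °C replicate 1, and they were looked at after their values were seen. AT5G05250 stood at 7.17 there, against 3.44 and 4.02 in its replicates. It was also high on the same-numbered array of WT at 22 °C, at 5.73 against 4.02 and 4.15. The unnamed probe sets 264146_at (6.32 against 3.05 and 2.88), 258983_at (5.32 against 2.66 and 3.76) and 245275_at (5.05 against 3.24 and 3.17) were high on that WT array too. PDF1.2 (4.05 against 4.03 and 4.03) and PDF1.2b (4.8 against 5.87 and 4.5) were not. The fifth, probe set 258791_at, has no gene name here either. Its log2 signals were 7.12, 7.33 and 9.22 in sid2-1 at 4 °C, 9.66, 10.77 and 9.4 in WT at 4 °C, 9.78, 7.27 and 6.91 in sid2-1 at 22 °C, and 7.78, 8.08 and 6.38 in WT at 22 °C. Over the 12 arrays it correlated at 0.794 with PDF1.2b and at 0.707 with PDF1.2. Among probe sets with a mean above 4, 14 correlated more highly with PDF1.2b, a count that includes PDF1.2b itself and PDF1.2. These correlations include the array on which 258791_at was picked, and in sid2-1 at 4 °C its lowest array was the one with the highest PDF1.2. The other 4 of the 5 correlated at -0.118 to 0.138 with PDF1.2 over the 12 arrays. Within groups the correlation with PDF1.2 was 0.604 for 258791_at, 0.606 for 245275_at, 0.458 for AT5G05250, 0.325 for 258983_at and 0.219 for 264146_at. All 5 were picked for high values on the array with the highest PDF1.2. Positive values within groups therefore follow in large part from that choice and do not show a shared pattern.

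Averaged over both genotypes, AT1G66100 was the thionin that fell in the cold (log2 difference -1.29 ± 0.37, SE, adjusted p = 0.0398 by limma), opposite in sign to the mean differences of PDF1.2 and PDF1.2b, which were not called. JMT (-1.78 ± 0.33, adjusted p = 0.00651), OPCL1 (-0.84 ± 0.25, adjusted p = 0.0428) and MYC4 (-0.69 ± 0.19, adjusted p = 0.0308) fell in that average too. These are 1 of 4 measured thionins, 2 of 4 jasmonate synthesis genes and 1 of 2 jasmonate signalling genes. Of all probe sets, 20.5% were called in either direction. The leaf genes LHCB4.2 (-0.81 ± 0.17, adjusted p = 0.00948) and RCA (-0.52 ± 0.10, adjusted p = 0.00677) also fell in the average, and their part in these differences was not tested.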
